A study of Mus musculus with 2 samples.

Results

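The hypoxia-response genes Hif1a, Bnip3, Ero1a, Car9, Ndrg1, Adm, Ndufa4l2, Egln3, Slc2a1 and Pdk1 were followed through single cells of ID8 mouse ovarian tumours. They were chosen by name and all 10 were found by symbol among the 33696 genes of the deposited tables. ID8 is a C57BL/6 mouse cell line derived from the surface layer of the ovary and is used as a model of ovarian cancer. The chemoresistant library came from ID8 tumours whose treatment label is cisplatin, and the primary library from treatment naïve ID8 tumours. Both hold pooled suspensions of collagenase-digested tumours cleared of red cells, so no tumour or animal can be told from another. Each group is 1 library, so a difference between them has no replicate check and no p-value is given. Cisplatin dose, mouse age and strain, and the number of tumours pooled are not stated in the labels.

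Cells sense oxygen through prolyl hydroxylases, which mark the alpha subunits of hypoxia-inducible factor (HIF) for destruction through VHL while oxygen is present. When oxygen falls, the alpha subunit persists, pairs with Arnt and binds DNA at the core ACGTG or GCGTG, and its targets shift cells to glycolysis, restrain mitochondria, buffer pH and promote vessel growth. Poorly perfused regions of solid tumours are known for this response. Hif1a is an alpha subunit, controlled mostly through its protein, and Egln3 is a prolyl hydroxylase. Slc2a1 is the glucose transporter GLUT1, and Pdk1 is a kinase that holds pyruvate dehydrogenase inactive. Bnip3 is a receptor for mitophagy and Ndufa4l2 a mitochondrial protein that lowers respiration. Ero1a is the oxidase of the endoplasmic reticulum that drives disulfide bonds, Car9 a cell-surface carbonic anhydrase, Ndrg1 a cytoplasmic protein induced by several stresses, and Adm the secreted vasodilator adrenomedullin.

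RefSeq promoter windows on GRCm38.p6 matched 8 of the 10 genes and were read from 250 bases before to 20 bases after the start site, with Ndrg1 and Ndufa4l2 unmatched. Either core was found, on either strand, in 8 of the 8 genes and ACGTG in 6, while 40.7% of all 32851 windows of that length held either core and 17.9% held ACGTG. A further window of Pdk1 held neither. The windows of 5 genes are shown because the cell data set them apart: Bnip3 and Ero1a differed most between the libraries in tumour cells, Slc2a1 moved in opposite directions in 2 cell classes, Adm went against the rest in collagen-rich cells, and Hif1a hardly followed the others in tumour cells. Capitals mark matches to either core on either strand, and the palindrome in Bnip3 and in Hif1a was counted on both strands.
Bnip3, chr7:138909487-138909756, minus strand: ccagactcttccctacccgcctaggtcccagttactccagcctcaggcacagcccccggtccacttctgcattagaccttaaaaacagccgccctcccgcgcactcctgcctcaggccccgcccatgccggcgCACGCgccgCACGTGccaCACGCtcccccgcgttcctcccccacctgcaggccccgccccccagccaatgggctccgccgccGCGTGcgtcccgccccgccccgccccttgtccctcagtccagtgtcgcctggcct
Ero1a, chr14:45318553-45318822, minus strand: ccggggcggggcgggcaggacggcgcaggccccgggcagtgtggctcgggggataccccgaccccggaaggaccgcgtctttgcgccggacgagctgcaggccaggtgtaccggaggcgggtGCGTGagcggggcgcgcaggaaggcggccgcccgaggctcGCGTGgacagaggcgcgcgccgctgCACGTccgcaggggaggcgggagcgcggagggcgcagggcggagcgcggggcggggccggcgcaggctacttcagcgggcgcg
Slc2a1, chr4:119108495-119108764, plus strand: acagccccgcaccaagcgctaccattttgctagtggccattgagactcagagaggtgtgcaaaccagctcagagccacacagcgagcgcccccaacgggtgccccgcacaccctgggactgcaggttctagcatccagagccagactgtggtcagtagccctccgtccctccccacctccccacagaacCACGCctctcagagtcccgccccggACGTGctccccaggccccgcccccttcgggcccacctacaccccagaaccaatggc
Adm, chr7:110627407-110627676, plus strand: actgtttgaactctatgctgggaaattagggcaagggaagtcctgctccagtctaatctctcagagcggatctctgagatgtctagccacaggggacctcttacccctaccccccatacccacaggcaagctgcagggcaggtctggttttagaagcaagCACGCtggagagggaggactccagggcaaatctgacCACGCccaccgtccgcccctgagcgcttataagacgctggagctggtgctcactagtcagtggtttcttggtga
Hif1a, chr12:73907617-73907886, plus strand: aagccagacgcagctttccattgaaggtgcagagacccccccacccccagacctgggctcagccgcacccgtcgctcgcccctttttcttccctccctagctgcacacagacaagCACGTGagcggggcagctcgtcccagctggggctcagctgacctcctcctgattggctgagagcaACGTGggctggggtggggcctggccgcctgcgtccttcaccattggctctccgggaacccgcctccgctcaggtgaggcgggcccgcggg
Bnip3 held 5 matches between 117 and 35 bases before the start site, the most of the windows read. Ero1a held 3 and Slc2a1 2, of which 1 each was ACGTG. Adm held GCGTG at 90 and 54 bases before the start site and no ACGTG. A match describes these letters only.

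Cells were classed by counting markers of each cell type. The chemoresistant library kept 14908 of 16390 barcodes and the primary library 12824 of 14390, with medians of 4634.5 and 5744 UMIs (unique molecular identifiers, each standing for 1 captured transcript). Tumour cells numbered 3359 and 859, collagen-rich cells 375 and 269, phagocytes 4661 and 3384, and neutrophils 657 and 1223 in the chemoresistant and primary libraries. No class was given to 17.5% and 23.2% of kept cells. Tumour and mesothelial markers formed 1 list, since the tumour cells expressed both, and host mesothelial cells cannot be told from tumour cells by it. Of that list Krt19 was highest, at 1433 and 1071 counts per 1000000 UMIs (CPM), while Cldn4 and Wfdc2 were under 1 CPM in both libraries. The collagen-rich class differed in its own 12 markers, all lower in the chemoresistant library: they summed to 6954 against 20465 CPM, with the proteoglycan Dcn at 1233 against 5392 CPM. Which collagen-rich cells were captured and how much each expressed cannot be told apart. The libraries shared 44 barcode sequences, and leaving those out moved no tested gene's log2 ratio between libraries by more than 0.026 in the 4 classes.

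In the chemoresistant library 8 of the 10 genes stood highest in collagen-rich cells of the 4 classes, and Bnip3 and Egln3 in neutrophils. In the primary library Adm and Ndufa4l2 stood highest in collagen-rich cells, 4 genes in neutrophils, 3 in phagocytes and Ndrg1 in tumour cells. The 95% Poisson intervals of the highest and the next class overlapped for Hif1a, Bnip3 and Adm in the chemoresistant library. In the primary library they overlapped for Car9 and Pdk1. Ndufa4l2 was at 739 CPM (95% Poisson interval 718 to 761) in chemoresistant and 95.7 CPM (86.2 to 106) in primary collagen-rich cells. Such intervals cover counting error only. The same gene was at 45.0 and 28.0 CPM in tumour cells and at 14.0 and 0.913 CPM in phagocytes of the chemoresistant and primary libraries, far below collagen-rich cells in each.

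Ero1a changed its place in the order of classes. In the chemoresistant library it was at 655 CPM in collagen-rich cells, 218 in tumour cells, 116 in neutrophils and 115 in phagocytes, with overlapping intervals for the last pair. In the primary library it was at 308 CPM in neutrophils, 101 in tumour cells, 57.2 in phagocytes and 20.9 in collagen-rich cells. Collagen-rich cells were thus highest in one library and lowest in the other.

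Egln3 was high in neutrophils, at 248 and 347 CPM in the chemoresistant and primary libraries, where phagocytes had 34.7 and 23.3 CPM. Hif1a spanned 96.6 to 198 CPM over the 4 classes of the chemoresistant library and 90.7 to 250.3 CPM over those of the primary library, lowest in tumour cells in both. Car9 reached 53.1 CPM in chemoresistant collagen-rich cells and 10.3 CPM in chemoresistant tumour cells, and was under 5 CPM in the other class and library pairs. Adm had 0 UMIs in chemoresistant neutrophils, where 3 UMIs would be 3.91 CPM. Of the 30 pairs of neighbours in the orders, intervals overlapped at 11 in the chemoresistant and 10 in the primary library.

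B cells show what free RNA and their own expression give together. There Ero1a stood at 47.2 and 21.0 CPM, Ndrg1 at 47.8 and 6.70 CPM and Bnip3 at 19.97 and 8.24 CPM in the chemoresistant and primary libraries, all below tumour cells of the same library. Hif1a stood higher in B cells, at 116 and 108 CPM against 96.6 and 90.7 CPM in tumour cells. So did Slc2a1, at 33.9 and 36.9 CPM against 32.5 and 23.2 CPM, with overlapping intervals in the chemoresistant library. Tumour cells had 33.4 and 29.7 CPM of Pdk1, below B cells in the chemoresistant library and above them in the primary library. Pdk1 in phagocytes, at 52.2 and 52.2 CPM, was closer to the 43.9 and 27.6 CPM of B cells. Thinned to 800 UMIs a cell, Ero1a had a UMI in 10.4% of chemoresistant and 5.15% of primary tumour cells, against 2.996% and 1.42% of B cells. Unthinned, at medians of 20761 and 34565 UMIs in tumour cells and 1515 and 4354 in B cells, the shares were 53.1% and 58.2%, against 5.86% and 9.12%.

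**Figure D1:**
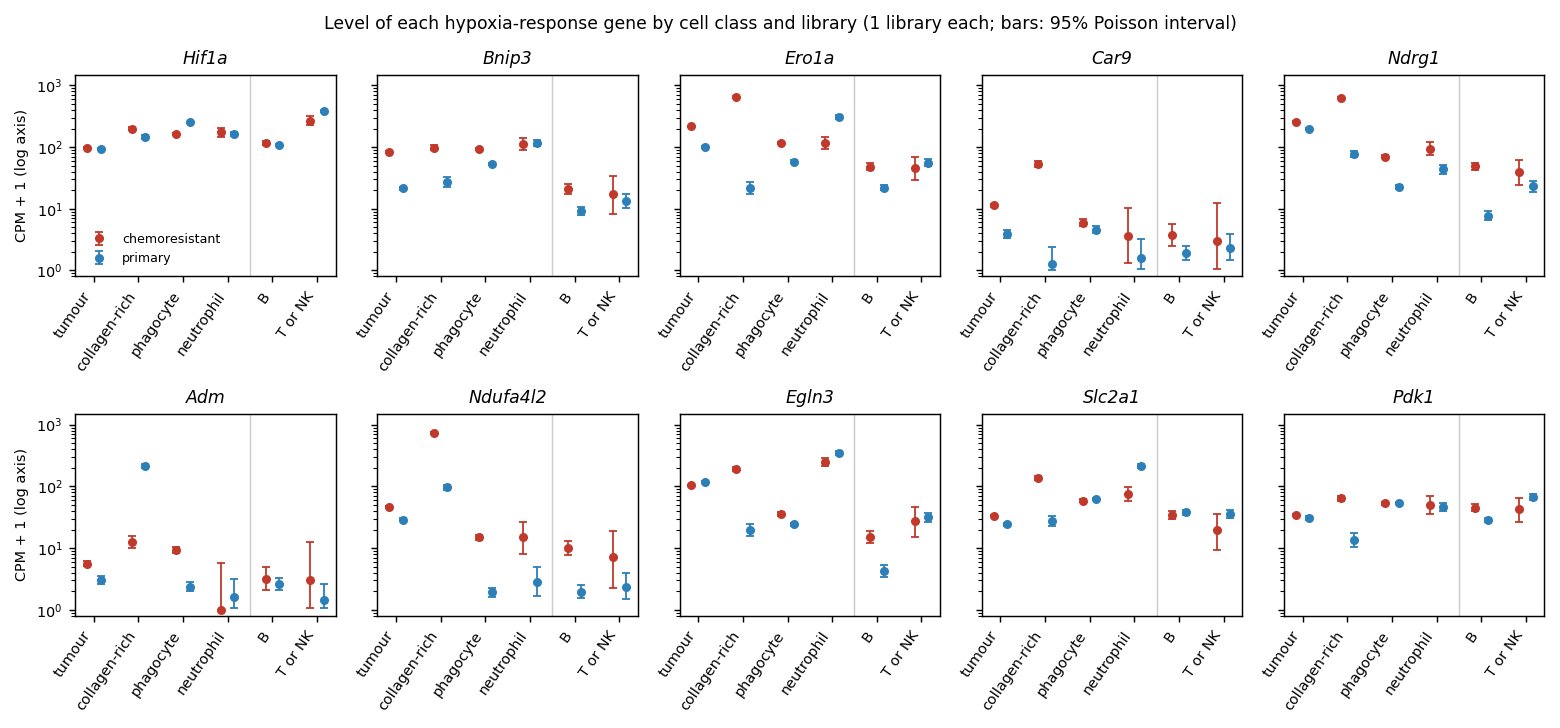
Level of each gene (CPM + 1, log axis) in the 4 cell classes and, right of the line, in B and T or NK cells, with chemoresistant cells in red and primary cells in blue. Points are sums over the cells of 1 library and bars are 95% Poisson intervals. In collagen-rich cells Ndufa4l2 reaches 739 CPM in the chemoresistant library, and Adm, unlike the other 9 genes, is higher in the primary library.

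Between the libraries, tumour cells differed in few of the genes. Bnip3 was at 82.0 CPM in chemoresistant and 20.4 CPM in primary tumour cells, a log2 ratio of 1.78, where ratios have 5 CPM added to both sides and so understate low genes. Ero1a was at 218 and 101 CPM, a log2 ratio of 1.07, and Ndufa4l2 at 45.0 and 28.0 CPM, a log2 ratio of 0.60. Of the 8 genes with a mean of at least 10 CPM, 3 were at least 1.5-fold higher and 0 lower, where 4.23% of 8863 genes were higher and 10.3% lower. Their median log2 ratio was 0.39, beside -0.13 for all genes. The other 5 lay within 1.5-fold, among them Hif1a at 96.6 and 90.7 CPM and Egln3 at 103 and 116 CPM. Car9 and Adm were under 10 CPM on average, at 10.3 and 2.90 CPM and 4.60 and 2.03 CPM.

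Ndufa4l2 lay near the threshold and lost its call under 4 of 12 alternatives. Bnip3 moved to a log2 ratio of 2.57 when tumour cells with 3 or more mesothelial markers were left out, which were 1648 chemoresistant and 363 primary cells. B cells were higher in the chemoresistant library too, by log2 ratios of 2.17 for Ndrg1, 1.01 for Ero1a and 0.92 for Bnip3, where 4.68% of genes were higher and 8.12% lower. The part of free RNA in these ratios was not tested.

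Some other genes of the pathway differed between the libraries in tumour cells. Of the 40 other hypoxia targets that passed the filter, 6 were at least 1.5-fold higher and 3 lower, beside 4.23% of all genes higher and 10.3% lower, so nothing is read from the lower count. Their median log2 ratio was 0.13. The higher ones were the glycolytic enzymes Pgk1 (559.8 against 256 CPM) and Ldha (667 against 440.2 CPM), the mitochondrial proteins Higd1a (272 against 136 CPM) and Fam162a (415 against 260.0 CPM), and Lox (16.8 against 5.97 CPM) and P4ha2 (17.7 against 10.0 CPM), which modify collagen. The lower ones were Bhlhe40, a repressor of transcription (93.6 against 311 CPM), and the glycolytic enzymes Pfkl (66.8 against 116 CPM) and Hk2 (66.4 against 104 CPM). The number of higher targets ran from 2 to 15 over the alternatives. Of the HIF machinery, 6 of 8 genes passed the filter, and Epas1, the alpha subunit of HIF-2, was lower at 17.6 against 38.7 CPM. Arnt was at 41.8 and 51.8 CPM, Vhl at 20.5 and 17.7 CPM, Egln1, a prolyl hydroxylase, at 127 and 145 CPM, its relative Egln2 at 61.6 and 59.0 CPM and the asparaginyl hydroxylase Hif1an at 20.3 and 21.8 CPM, all within 1.5-fold. Hif3a and Arnt2 did not pass the filter.

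Collagen-rich cells showed the widest difference. Of the 10 genes, 8 were at least 1.5-fold higher and 1 lower in the chemoresistant library, where 10.5% of 9026 genes were higher and 27.4% lower. Ero1a was at 655 and 20.9 CPM in chemoresistant and primary cells, a log2 ratio of 4.67, and Egln3 at 190.1 and 18.9 CPM. Ndrg1 was at 632 and 77.3 CPM, Slc2a1 at 137 and 26.4 CPM, Pdk1 at 63.3 and 12.7 CPM and Bnip3 at 97.5 and 26.4 CPM. Each of these stood higher in the chemoresistant library. Car9 had 317 UMIs against 1, a ratio of 205 with a counting interval of 36.6 to 8134. Adm ran the other way, at 11.7 and 213 CPM, a log2 ratio of -3.70, and had a UMI in 2.67% of chemoresistant and 38.3% of primary cells. Hif1a, at 198 and 144 CPM, lay within 1.5-fold. Of the 43 other targets that passed the filter, 34 were higher and 5 lower, with a median log2 ratio of 1.59. Beside this, adipocyte markers summed to 107 against 834 CPM and B cell markers to 52.9 against 937 CPM in the same cells. Tumour and mesothelial markers summed to 668 against 761 CPM. Of the B cell markers, Ebf1 held most of the sum in the primary groups of cells compared below. The part of these markers in the result was not tested.

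In phagocytes 3 of the 7 genes that passed the filter were higher and 1 lower in the chemoresistant library, where 2.15% of 8330 genes were higher and 7.92% lower. Ndrg1 was at 69.3 and 21.6 CPM, Ero1a at 115 and 57.2 CPM and Bnip3 at 90.7 and 51.6 CPM in chemoresistant and primary phagocytes. Without barcodes under 1% mitochondrial, Bnip3 stood at a log2 ratio of 0.55 and lost its call, and the higher genes were 2. Hif1a was lower, at 163 and 250.3 CPM, a log2 ratio of -0.61 that lost its call under 4 of 10 alternatives. The log2 ratios of Ndrg1, Ero1a and Bnip3 were 1.48, 0.95 and 0.76 in phagocytes, each below that of B cells given above. Slc2a1 and Pdk1 lay within 1.5-fold, at 57.8 and 62.5 CPM and 52.2 and 52.2 CPM.

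Neutrophils of the chemoresistant library held 767017 UMIs in all, with a median of 898 a cell, against 3270871 UMIs and a median of 2404 in the primary library. Slc2a1 was lower, at 74.3 and 211 CPM in chemoresistant and primary neutrophils, and so was Ero1a, at 116 and 308 CPM, while Ndrg1 was higher, at 93.9 and 43.1 CPM. These are 1 higher and 2 lower of 7 genes, where 12.6% of 8398 genes were higher and 13% lower. Without barcodes under 1% mitochondrial, 384 of 657 chemoresistant and 742 of 1223 primary neutrophils, Ero1a lost its call, at a log2 ratio of -0.22 against -1.37 with them, while Slc2a1 stood at -1.18 against -1.44. Genes left unchanged in simulated neutrophils of these depths also passed 1.5-fold, so the calls in this class are less certain than in the others. T or NK cells had 18.6 CPM of Slc2a1 (8.48 to 35.2, from 9 UMIs) in the chemoresistant and 34.9 CPM (29.6 to 40.8) in the primary library. The intervals overlap, in a class where 10.8% of genes were higher and 16% lower.

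**Figure D2:**
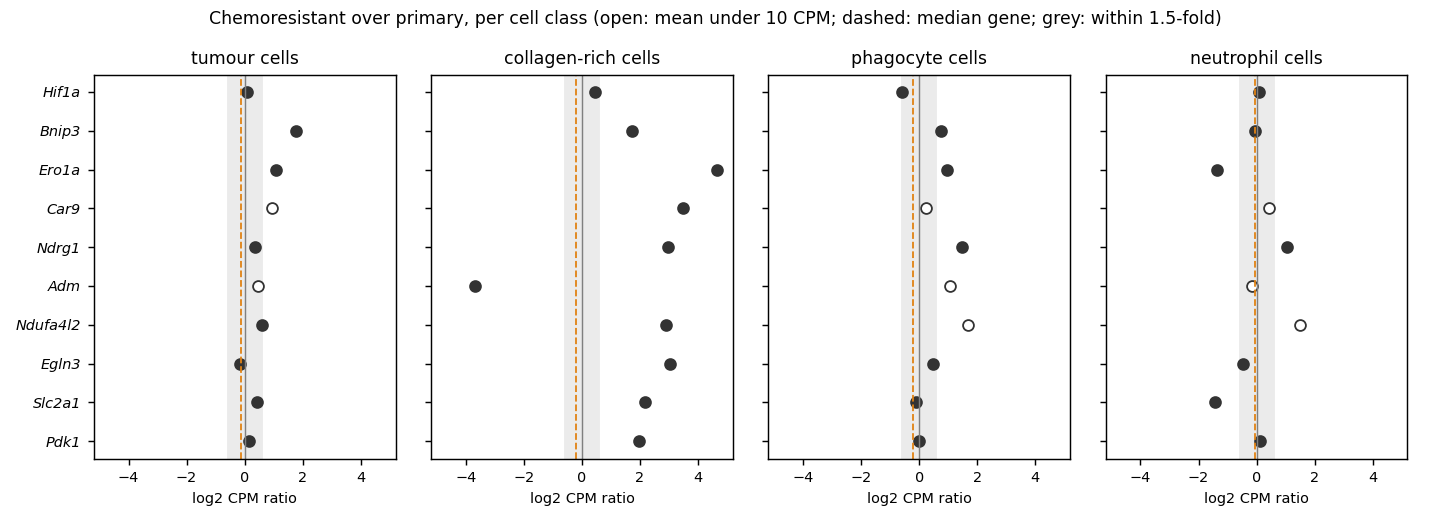
Log2 ratio of CPM, chemoresistant over primary, of each gene in the 4 cell classes. The grey band spans 1.5-fold each way, the dashed line is the median gene and open points are genes with a mean under 10 CPM. In collagen-rich cells 8 genes lie past the limit on the higher side and Adm, at -3.70, on the lower side.

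Whether the genes rise in the same cells was asked within each class and library. Cells were thinned to 1 depth per class (7900 UMIs in tumour cells, 2900 in collagen-rich cells, 2700 in phagocytes and 600 in neutrophils) to count which of the genes were detected. In tumour cells 3 or more were detected in 44.3% of chemoresistant cells (exact binomial interval 42.4 to 46.2) and 33.9% of primary cells (30.5 to 37.4), and none in 8.23% and 11.4%. Collagen-rich cells differed more, with 3 or more in 58.4% of chemoresistant and 10.2% of primary cells. Phagocytes had 11.9% and 7.64%. The depths differ between classes, so these shares are set against each other only between libraries. The intervals take cells of 1 library as independent and do not cover differences between tumours. Cells under the depth were left out, 661 chemoresistant and 116 primary tumour cells among them.

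**Figure D3:**
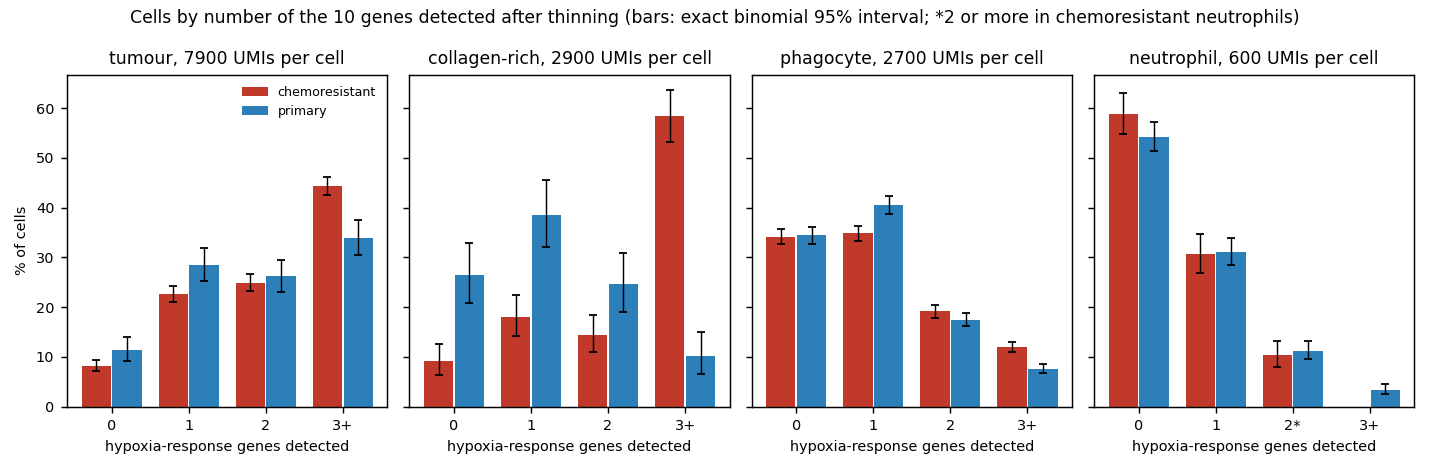
Share of cells (percent) by how many of the 10 genes were detected at 1 fixed depth per class, chemoresistant beside primary, with exact binomial 95% intervals. In collagen-rich cells the group with 3 or more holds 58.4% of chemoresistant and 10.2% of primary cells.

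Most of the genes rose together in tumour cells of both libraries. Each was compared between cells by how many of the other 9 were detected, so that no gene counted towards its own group. Ero1a was at 27.4, 33.0, 51.8 and 517 CPM in chemoresistant tumour cells with 0, 1, 2 and 3 or more of the other genes, and at 27.2, 29.0, 34.0 and 273 CPM in primary ones. Ndrg1 gave 64.2, 63.2, 91.2 and 638 CPM in the chemoresistant and 76.8, 76.8, 104 and 558 CPM in the primary library. The largest step came at 3 or more in each of these series. Bnip3 gave 28.5, 24.9, 33.3 and 172 CPM in the chemoresistant library and 17.0, 10.7, 13.1 and 36.1 CPM in the primary library, log2 ratios of 2.40 and 0.90 between cells with 3 or more and cells with none, a difference that was not tested. The ratio in primary cells was 0.24 when cycling cells (any UMI of Mki67, Top2a or Cdk1) were dropped, within 1.5-fold.

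Ndufa4l2 was nearly limited to cells with several of the other genes. In chemoresistant tumour cells it was at 99.3 CPM with 3 or more and 2.09 CPM with none. In primary ones it was at 73.6 CPM (879 UMIs) with 3 or more and had 0 UMIs in the 85 cells with none. With 3 UMIs allowed over all cells with none, it was at least 88.1-fold higher. That bound takes UMIs as independent, while 1 primary tumour cell held 77 UMIs of the gene, so it would fall with 1 such cell among those with none. Cells with 3 or more held 92.1% and 91.8% of Ndufa4l2 UMIs and were 43.2% and 33.2% of cells. Egln3 was at 208 against 45.2 CPM in the chemoresistant and 236 against 63.1 CPM in the primary library, Slc2a1 at 61.7 against 10.9 CPM in the chemoresistant and 47.0 against 10.8 CPM in the primary library, and Pdk1 at 51.0 against 19.6 CPM in the chemoresistant and 55.4 against 13.5 CPM in the primary library.

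Hif1a lay within 1.5-fold, at 101 against 85.8 CPM in the chemoresistant and 101 against 86.0 CPM in the primary library, a log2 ratio of 0.22 in each. Car9 lay just past it, at 11.8 against 5.31 CPM in the chemoresistant library, a log2 ratio of 0.70 that lost its call under 3 of 7 alternatives. The share of these cells with a Car9 UMI did not rise once thinned, at 6.64% against 6.72%, and was 13.9% against 10.5% unthinned. In the primary library Car9 did not pass the filter, at 3.30 against 1.90 CPM. In total 8 of 9 genes that passed the filter in chemoresistant tumour cells, Car9 among them, and 7 of 8 in primary tumour cells were at least 1.5-fold higher in cells with many of the others, and 0 were lower. Split by the count of all 10, 3.33% and 4.76% of all genes were higher and 0.86% and 2.37% lower. The members' median log2 ratio was 2.08 and 1.77, and that of all genes -0.03 and -0.01.

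**Figure D4:**
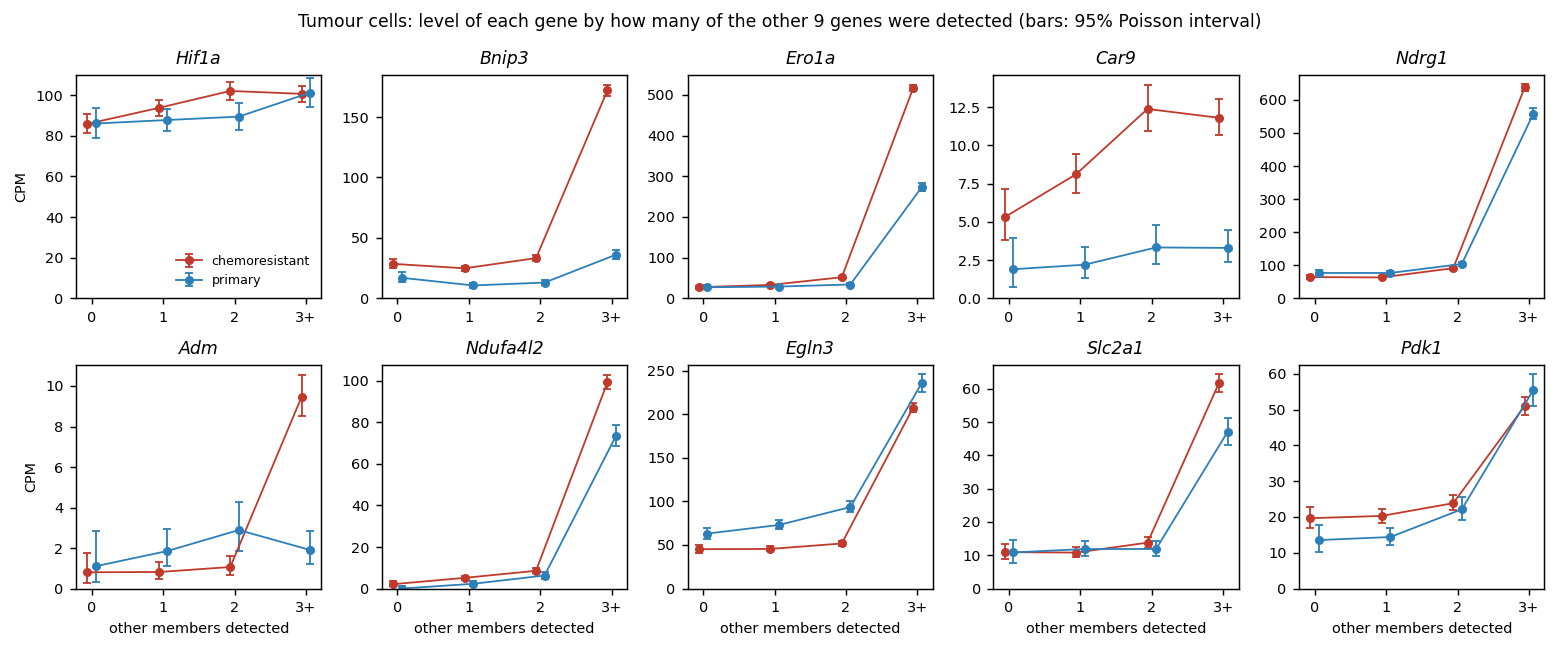
Level of each gene (CPM) in tumour cells with 0, 1, 2 and 3 or more of the other 9 genes detected, chemoresistant and primary, with 95% Poisson intervals. Ero1a reaches 517 CPM in chemoresistant and 273 CPM in primary cells at 3 or more, while Hif1a stays near its level in cells with none.

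Pairs of genes are given as a description. Over 2698 chemoresistant tumour cells the highest Spearman rho was 0.44, between Ero1a and Ndrg1, with a median of 0.15 over 45 pairs. Over 743 primary tumour cells the highest was 0.36, between Ndrg1 and Ndufa4l2, with a median of 0.11. The cells share a library and its free RNA, at 1 depth. Pairs with Hif1a reached at most 0.04 in the chemoresistant and 0.11 in the primary library, and pairs with Car9 at most 0.04 and 0.12.

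Other features of tumour cells with 3 or more of the genes and with none are given beside these results. Median UMIs were 25280 against 28797 in the chemoresistant and 43306 against 37769 in the primary library. Barcodes with under 1% mitochondrial UMIs were 5.77% against 3.604% and 4.37% against 1.18%, and without them 7 and 7 genes were called. Cells with a UMI of the cycling genes Mki67, Top2a or Cdk1 were 28.7% against 27.9% and 41.7% against 37.6%. Phagocyte markers summed to 334 against 339.9 CPM and 375 against 291 CPM, and collagen-rich markers to 552 against 615 CPM and 953 against 1112 CPM. B cell markers summed to 32.0 against 28.6 CPM and 82.4 against 139 CPM, and T or NK markers to 9.40 against 8.22 CPM and 22.9 against 11.4 CPM. Of 5 stress and immediate early genes set beside the result, the transcription factors Ddit3 and Atf4 were at 103 against 37.9 CPM and 184 against 80.0 CPM in the chemoresistant library, Fos at 535 against 209.5 CPM, Jun at 327 against 205 CPM and the chaperone Hspa1a at 18.7 against 8.62 CPM, all at least 1.5-fold higher. In the primary library Atf4, at 177 against 116 CPM, was just past 1.5-fold higher and Hspa1a, at 19.0 against 32.3 CPM, was lower, while Ddit3, at 114 against 91.0 CPM, Fos, at 1812 against 1240.2 CPM, and Jun, at 1329 against 978 CPM, lay within 1.5-fold. Their part in the result was not tested.

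Genes outside the list followed the same split of tumour cells. Of the other targets, 31 of 42 in the chemoresistant and 30 of 38 in the primary library were higher in cells with many of the genes, beside 3.33% and 4.76% of all genes, and 0 were lower. Vegfa, the vessel growth factor, came first of 8340 genes ranked by how far they followed in both libraries, at 240.5 against 32.9 CPM in the chemoresistant and 420.0 against 35.6 CPM in the primary library. Of the first 15, 7 were on the target list, which made up 38 of the 8340, among them Vegfa, the lipoprotein receptor Vldlr, Ankrd37, P4ha2, Pgk1 and Gbe1, the glycogen branching enzyme. The other 8 were the EGF receptor ligands Areg and Hbegf, the receptor's inhibitor Errfi1, the transcription factors Fosl1 and Nr4a1, the prostaglandin synthase Ptgs2, the retinoic acid hydroxylase Cyp26b1, and Bsg, a chaperone of lactate transporters. Areg was at 25.6 against 1.48 CPM in the chemoresistant and 21.6 against 0.835 CPM in the primary library, and Bsg at 1606 against 592 CPM in the chemoresistant and 2103 against 549 CPM in the primary library. Lowest were Ahsg, Ccl5, Ifit2, Enpp2, Pgc, Olfml3, Tmem86a, Zbp1, Egflam and H2-T23. Among them the chemokine Ccl5 was at 24.1 against 198 CPM in the chemoresistant and 14.4 against 32.6 CPM in the primary library, and the interferon-induced Ifit2 at 8.77 against 20.5 CPM in the chemoresistant and 25.0 against 100.2 CPM in the primary library.

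Of the HIF machinery, Egln1 was higher in tumour cells with many of the genes, by log2 ratios of 0.85 and 0.76 in the chemoresistant and primary libraries. Epas1 stood at 0.13 and 0.74, past 1.5-fold in the primary library. Arnt stood at -0.20 and 0.38, Egln2 at -0.36 and -0.25, Hif1an at 0.30 and -0.14 and Vhl at 0.02 and -0.04, all within 1.5-fold.

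Phagocytes showed the pattern too. Ero1a was at 43.2, 63.0, 155 and 622 CPM in chemoresistant phagocytes with 0, 1, 2 and 3 or more of the other genes, and at 34.4, 44.2, 89.0 and 223 CPM in primary ones. Ndrg1 was at 323 against 27.0 CPM in the chemoresistant and 86.9 against 13.8 CPM in the primary library with 3 or more and with none, and Egln3 at 157 against 13.6 CPM in the chemoresistant and 138 against 9.11 CPM in the primary library. Cells were grouped at a lower depth here than in tumour cells, so groups with the same number of genes are not the same in both classes. Of 8 genes that passed the filter 6 were higher in the chemoresistant library, where 7.3% of all genes were higher and 7.09% lower, and 7 of 7 in the primary library, where 5.42% were higher and 3.41% lower. Among these Pdk1, at 69.0 against 43.2 CPM in primary phagocytes, a log2 ratio of 0.62, lost its call under 4 of 6 alternatives. Hif1a was at 158 against 144 CPM in chemoresistant phagocytes, within 1.5-fold, and at 421 against 208 CPM in primary ones, a log2 ratio of 1.00.

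Phagocytes with 3 or more of the genes also differed in other ways from those with none. Barcodes with under 1% mitochondrial UMIs were 22.5% against 2.72% in the chemoresistant and 5.93% against 2.45% in the primary library, and without them 6 and 7 genes were called. Phagocyte markers summed to 13399 against 24076 CPM and 16951 against 20485 CPM, and tumour markers to 411 against 301 CPM and 492 against 151 CPM. Collagen-rich markers summed to 126 against 52.0 CPM and 39.1 against 40.5 CPM, and T or NK markers to 57.5 against 14.5 CPM and 162 against 47.6 CPM. Of the 12 T or NK markers, 1 was higher in the chemoresistant and 10 in the primary library, so the chemoresistant sum rose through 1 marker. Their part in the result was not tested. Among the genes that followed most closely, named after their values were seen, were the chemokine Cxcl3, at 184 against 1.16 CPM in the chemoresistant and 169.8 against 4.11 CPM in the primary library, and the lipid droplet protein Hilpda, at 565 against 36.1 CPM in the chemoresistant and 317 against 34.6 CPM in the primary library.

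Collagen-rich cells are given for each library on its own. In the chemoresistant library Egln3 was at 17.9, 37.4, 98.2 and 282 CPM in cells with 0, 1, 2 and 3 or more of the other genes, and Bnip3 at 7.76, 19.2, 62.3 and 141 CPM. Car9 had 0 UMIs in the 33 cells with none and 79.7 CPM in cells with 3 or more, at least 13.7-fold higher with 3 UMIs allowed over all cells with none. That bound takes UMIs as independent, while 1 cell of the class held 12 UMIs of Car9. Of the 10 genes 9 were higher, where 10.9% of all genes were higher and 20.9% lower, and Hif1a, at 174 against 208 CPM, lay within 1.5-fold. Adm, among these 9, rested on 53 UMIs against 1, a ratio of 7.55 with a counting interval of 1.30 to 304 that takes UMIs as independent. Its 70 UMIs in the class lay in 10 cells. It had a UMI in 2.38% of cells with 3 or more and 2.94% of cells with none, so the share of cells did not rise. The ratio of Adm turned round when 2 more markers were required, to a log2 ratio of -0.81. In the primary library 2 of 9 genes were higher, where 16.7% of all genes were higher and 15.7% lower: Slc2a1, at 33.8 against 15.1 CPM, and Bnip3, at 34.7 against 19.97 CPM, in cells with 2 or more of the others and with none. That count ran from 0 to 4 over the alternatives. At the 2900 UMIs used for grouping, Adm was detected in 30.6% to 32.9% and Hif1a in 25% to 37.5% of primary cells by group. Each other gene was detected in at most 15.6% of any group. Adm and Hif1a thus did most to group these cells, so a joint rise of the others could hardly show. For most genes the top group was 2 or more there against 3 or more in chemoresistant cells, so these counts are not compared. Barcodes with under 1% mitochondrial UMIs were 25.1% against 0% of chemoresistant collagen-rich cells with 3 or more and with none, where 3 of the 33 cells with none would be 9.09%, and without such barcodes 9 genes were called. In the same cells B cell markers summed to 47.9 against 3.88 CPM, with 10 of 10 higher. In the 33 cells with none 4 UMIs of Bnip3 made 7.76 CPM, so that lower sum rests on very few UMIs and nothing is read from the 10. Plasma cell markers summed to 263 against 101 CPM, with 4 of 7 higher. Endothelial markers summed to 95.2 against 15.5 CPM, with 3 of 8 higher, and Esam alone was at 88.7 against 7.76 CPM. Adipocyte markers summed to 53.0 against 161 CPM, with 1 of 6 higher. In primary cells with 3 or more of the genes and with none, B cell markers summed to 1042 against 480.0 CPM. Of these, 2 of 10 were higher, and Ebf1 alone was at 994 against 373 CPM. Tumour markers there summed to 450.2 against 1025 CPM, with 3 of 15 higher. Their part in the result was not tested.

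Primary neutrophils gave a graded pattern that for Ero1a and Slc2a1, but not for Bnip3 and Egln3, rested on some of their barcodes. Ero1a was at 186, 409, 720.4 and 1320.3 CPM in primary neutrophils with 0, 1, 2 and 3 or more of the other genes, and Bnip3 at 62.7, 159, 238 and 423 CPM, where the last group held 21 cells for Ero1a and 30 for Bnip3. Egln3 was at 259, 455 and 709 CPM and Slc2a1 at 155, 258 and 436 CPM in those with 0, 1 and 2 or more. The 7 genes that passed the filter were all higher, where 11.9% of all genes were higher and 42.9% lower, and that count ran from 5 to 7 over the alternatives. In neutrophils with the most of the genes and with none, tumour markers summed to 2329.9 against 759 CPM, with 6 of 15 higher. Neutrophil markers summed to 54694 against 75229 CPM, with 7 of 12 higher, and erythroid markers to 82.9 against 1668 CPM. Camp was at 9.21 against 4570 CPM and Ngp at 27.6 against 3807 CPM, both named after their values were seen. The part of these differences in the result was not tested. Leaving out barcodes with under 1% mitochondrial UMIs, 742 of 1223 primary neutrophils, took the log2 ratio of Ero1a to 0.16, against 2.80 with them, and that of Slc2a1 to 0.21, against 1.46. Bnip3 and Egln3 kept their calls under all 6 alternatives, this one among them, with lowest log2 ratios of 1.97 and 0.63. In the chemoresistant library 3 of 8 genes were higher, where 21.5% of all genes were higher and 27% lower, and nothing is read from that count at this depth.

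**Figure D5:**
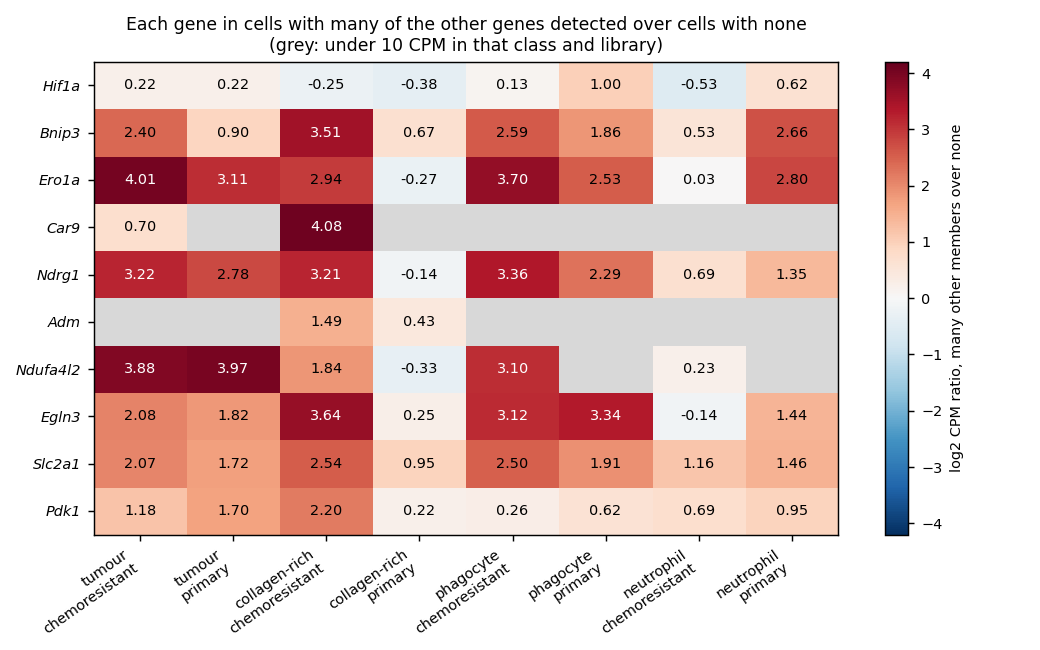
Log2 ratio of CPM of each gene in cells with many of the other genes detected over cells with none, for the 4 cell classes, chemoresistant left of primary, with grey for genes under 10 CPM. Ratios are high for most genes in tumour cells and phagocytes of both libraries, while Hif1a runs from -0.53 to 1.00.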

How the data were processed

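Single-cell RNA was captured with 10x Chromium 3' v3 chemistry, per the labels. The authors deposited UMI counts as whole numbers for each gene and barcode, written by Cell Ranger 8.0.1 according to the file headers, with mm10 named in the submitters' processing notes. The libraries held 158118781 (chemoresistant) and 141334623 (primary) UMIs.

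The 10 genes and the marker and target lists were chosen with earlier results of these data known, and the class rule was set after seeing them. Barcodes with at least 500 UMIs, at least 250 genes and at most 20% mitochondrial UMIs were kept. A marker counted at 1 or more UMIs and at least 1 in 10000 of the cell's UMIs. A cell took the class with the most counted markers, if these were at least 3 and no other list passed 0.5 of that count. Tumour cells with 2 or more enterocyte markers were left out. Barcodes with more markers of another list than that limit stayed without a class. Those with fewer kept their class, so mixed barcodes can remain, and no doublet caller was used.

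UMIs were summed per class and library and given as CPM with exact Poisson intervals, and shares of cells with exact (Clopper-Pearson) intervals, both at 95%. Log2 ratios had a pseudocount of 5 CPM, genes needed a mean of 10 CPM, and 1.5-fold was called. With 1 library per group no test was run. Thinning went to about the 20th percentile of UMIs of the shallower library of a class, shallower cells were left out, and groups of under 20 cells were merged with the one below. Beside the 10 genes, the text names the HIF machinery in full, targets past 1.5-fold in tumour cells, and the 15 higher and 10 lower genes that followed most closely in tumour cells. Steps were tested on simulated data, where they recovered most of the changes put in. For independent genes in tumour cells and chemoresistant collagen-rich cells, simulated levels were lowered until the group with none held at least 20 cells. That check was therefore not run at the levels of these data. In neutrophils, genes left unchanged were called as well, between libraries and between chemoresistant cells, more often than in the other classes. Python 3.11.15, numpy 2.4.6, scipy 1.17.1, pandas 2.3.3 and matplotlib 3.10.9 were used.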

Additional observations from a re-analysis of the deposited data

Results flagged for a closer look

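The difference between the libraries ran in opposite directions in different cell classes for 2 of the genes, and the difference between classes was not tested. Ero1a had log2 ratios, chemoresistant over primary, of 1.07 in tumour cells, 4.67 in collagen-rich cells, 0.95 in phagocytes and -1.37 in neutrophils. Slc2a1 had log2 ratios of 2.17 in collagen-rich cells and -1.44 in neutrophils. In neutrophils these rest on 89 UMIs of Ero1a in the chemoresistant and 1008 in the primary library, and on 57 and 689 UMIs of Slc2a1. Without barcodes under 1% mitochondrial the neutrophil log2 ratio of Ero1a was -0.22, within 1.5-fold, and that of Slc2a1 -1.18.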

How the results depend on the processing

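No paired analysis was possible because each group is 1 pooled library and the labels carry no replicate numbers. The tumour and phagocyte counts of genes that rose in the same cells stayed at 7 to 8 and 6 to 7 in tumour cells, and at 6 and 6 to 7 in phagocytes, of the chemoresistant and primary libraries. Between libraries in tumour cells, Bnip3 ran from 1.27 to 2.57 and Ero1a from 0.71 to 1.38 (log2). The median of all genes was -0.13 in tumour cells, -0.21 in collagen-rich cells and -0.23 in phagocytes, which is the shift that centring removes. In tumour cells the 6 higher targets became 3 with a pseudocount of 20 CPM, 11 with centring, 2 with 2 more markers required and 15 without cells with 3 or more mesothelial markers. There the 3 lower targets became 6 with 2 more markers, and the 3 higher members 5 without the mesothelial cells. In phagocytes the 1 lower member became 0 with a pseudocount of 20 CPM, with centring, with means over cells and without the 10% of cells with most UMIs, and the 3 higher became 5 with no filter and 2 without barcodes under 1% mitochondrial. In neutrophils the 1 higher member became 2 with no filter, without the 10% of cells with most UMIs and with a looser limit on markers of other lists (chosen after seeing the data), and the 2 lower became 1, without Ero1a, when barcodes under 1% mitochondrial were left out. Within cells, the 2 members of primary collagen-rich cells became 0 without the 10% of cells with most UMIs and 4 with the looser limit, and the 3 of chemoresistant neutrophils became 6 at double the thinning depth and 6 without barcodes under 1% mitochondrial. These log2 ratios turned round: Adm in chemoresistant collagen-rich cells (-0.81 with 2 more markers), Bnip3 in primary collagen-rich cells (-0.051 without barcodes under 1% mitochondrial, -0.15 without the cells with most UMIs, -0.0027 with the looser limit) and Slc2a1 there (-0.039 without the cells with most UMIs). In chemoresistant neutrophils Ndrg1 turned to -1.24 at double depth, and without counting Hif1a and Slc2a1 it turned to -0.11 and Pdk1 to -3.34. In primary neutrophils Ndrg1 turned to -1.76 with 2 more markers and -1.48 with the looser limit. The cause was not tested. Double depth was not run for 4 genes in primary tumour cells and 9 in chemoresistant collagen-rich cells, where a group held under 20 cells. Depth limits neutrophils most, and Car9 and Adm outside collagen-rich cells.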
